A study of Homo sapiens with 6 samples.

Results

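Polycomb, Trithorax and histone demethylase genes encode proteins of the complexes that write, read and erase methyl groups on the histone residues whose marks were mapped here. The set holds 43 genes of the 19974 protein-coding genes on chromosomes 1 to 22 and X: 11 of PRC2, 15 of PRC1, 11 of the H3K4 methyltransferase complexes and 6 demethylases. A peak or a differential region was taken to belong to a gene when it overlapped the gene's RefSeq GRCh38 span extended by 2 kb on each side. The list was drawn up by function, with earlier results of these data known, and no measured value entered the rule.

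Trimethylation of histone H3 lysine 4 (H3K4me3) marks active and poised promoters, and trimethylation of lysine 27 (H3K27me3) marks promoters and domains held silent by Polycomb. PRC2 writes H3K27me3 through EZH1 or EZH2. PRC1 complexes bind that mark through CBX proteins or act without it, and place ubiquitin on histone H2A through RING1 or RNF2. KMT2 and SETD1 proteins, the Trithorax class, write methyl groups on H3K4 as a complex with WDR5, RBBP5, ASH2L and DPY30, while KDM1A and KDM5 proteins remove them and KDM6 proteins remove methyl groups from H3K27. KDM6A and KMT2D are among the chromatin genes known to be mutated in medulloblastoma, with KDM6A best known for Group 3 and Group 4 tumors.

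The 4 libraries used came from D283, an established human Group 3 medulloblastoma cell line grown as tumorspheres, floating clusters in neural precursor medium. In OTX2low the homeodomain factor OTX2 was silenced with 30 nM siRNA, and OTX2high cells received a non-silencing scramble siRNA. H3K4me3 and H3K27me3 were each sequenced in 1 library per condition from this 1 line, so every difference is between 2 single libraries. The 2 IgG libraries had titles and silencing labels that named opposite conditions, and they were put in no group.

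The H3K4me3 libraries held 33137731 filtered tags in OTX2high and 20914582 in OTX2low, and those of H3K27me3 held 40271458 (the one labelled OTX2high) and 33885628 (the one labelled OTX2low). For H3K27me3 the sample labels and the file headers disagree: each peak list carries the other condition's name in its header. The IgG tags go with the headers. The H3K27me3 list labelled OTX2high was called against 55079542 IgG tags, as was H3K4me3 in OTX2low. The one labelled OTX2low was called against 85840108, as was H3K4me3 in OTX2high. Lists are named here by sample label, with no direction drawn between them. Differential H3K27me3 values follow the condition names of the authors' deposited table, whose read depths go with the headers, and their signs would turn if the labels were the correct names. All 6 neural and Group 3 marker genes examined (OTX2, EYS, IMPG2, NEUROD1, BARHL1 and EOMES) had an H3K4me3 peak in both lists. Of 6 markers of glia, immune cells, endothelium and mesenchyme, COL1A1 had a peak in both lists, PTPRC had one in OTX2high, and GFAP, MOG, PECAM1 and COL3A1 had none.

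All 43 genes carried an H3K4me3 peak in OTX2high, where 75.0% of all protein-coding genes had one. All 43 carried one in OTX2low too, against 73.7% of all genes. Of 54 RefSeq start sites given for 38 of the genes, 49 lay inside a peak in both lists, and 37 of the 38 genes had at least 1 such start. The exception was KMT2B, whose given start lay inside a peak in the OTX2low list alone. The same share was not taken over all RefSeq starts, so this is not shown to be particular to the set. Further peaks lay far from any given start, as in JARID2. Start windows of these genes were rich in CG pairs, with a median of 30.5 per 300-base window against 14 over all 35116 RefSeq windows.

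Promoters of 6 genes are shown because the results below turn on them: EZH2, the H3K27 methyltransferase, EED and SUZ12, its obligate partners, BMI1 and PHC2 of PRC1, and KDM5B, an H3K4 demethylase. Each sequence is the 250 bases before the first RefSeq start (GRCh38.p14), read 5′ to 3′ on the gene's strand. Capitals mark matches to the motifs searched, which were TAATCC (an OTX-type homeodomain motif), CACGTG (an E-box), TTTCCCGC and TTTGGCGC (E2F type), on both strands.
EZH2, chr7:148884292-148884541, minus strand: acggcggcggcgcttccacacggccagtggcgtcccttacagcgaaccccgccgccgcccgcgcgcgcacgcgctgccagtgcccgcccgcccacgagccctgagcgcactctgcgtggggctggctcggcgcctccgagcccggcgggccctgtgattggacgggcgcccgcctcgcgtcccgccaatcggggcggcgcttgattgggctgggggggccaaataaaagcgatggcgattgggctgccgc
EED, chr11:86244503-86244752, plus strand: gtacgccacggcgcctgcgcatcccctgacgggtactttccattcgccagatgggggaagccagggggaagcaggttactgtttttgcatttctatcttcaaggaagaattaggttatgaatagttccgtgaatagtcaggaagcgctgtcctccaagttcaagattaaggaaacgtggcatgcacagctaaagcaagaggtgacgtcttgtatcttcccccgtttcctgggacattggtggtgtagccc
SUZ12, chr17:31936757-31937006, plus strand: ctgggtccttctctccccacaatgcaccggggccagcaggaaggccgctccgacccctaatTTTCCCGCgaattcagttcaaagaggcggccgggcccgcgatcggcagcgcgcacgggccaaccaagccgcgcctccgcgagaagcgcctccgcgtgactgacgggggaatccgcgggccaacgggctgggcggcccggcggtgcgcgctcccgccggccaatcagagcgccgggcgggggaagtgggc
BMI1, chr10:22320849-22321098, plus strand: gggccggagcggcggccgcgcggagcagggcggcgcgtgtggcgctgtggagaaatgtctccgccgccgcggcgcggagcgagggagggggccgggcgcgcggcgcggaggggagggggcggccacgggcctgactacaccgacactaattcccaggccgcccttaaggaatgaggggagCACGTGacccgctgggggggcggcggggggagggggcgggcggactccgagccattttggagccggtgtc
PHC2, chr1:33431096-33431345, minus strand: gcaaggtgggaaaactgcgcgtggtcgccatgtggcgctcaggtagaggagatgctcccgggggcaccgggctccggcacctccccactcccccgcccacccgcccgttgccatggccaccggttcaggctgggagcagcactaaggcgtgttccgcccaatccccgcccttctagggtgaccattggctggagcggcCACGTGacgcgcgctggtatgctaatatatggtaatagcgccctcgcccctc
KDM5B, chr1:202808422-202808671, minus strand: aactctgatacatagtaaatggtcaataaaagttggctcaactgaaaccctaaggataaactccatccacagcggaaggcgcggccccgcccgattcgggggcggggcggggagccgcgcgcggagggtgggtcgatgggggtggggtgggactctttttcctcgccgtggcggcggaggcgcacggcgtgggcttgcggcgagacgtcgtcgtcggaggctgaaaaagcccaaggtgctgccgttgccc

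These 250 bases held 38 CG pairs at EZH2, 35 at BMI1, 34 at SUZ12, 27 at KDM5B, 21 at PHC2 and 11 at EED. An E-box stood at base -70 of BMI1 and at base -52 of PHC2, and the E2F-type TTTCCCGC at base -189 of SUZ12, counted to the first base of the match with -1 just before the start. In the full 300-base windows, the E-box was in 8 of 54 windows of these genes (BMI1, CBX6, KDM6A, KMT2D, PHC2, PHC3, RBBP4 and WDR5) and in 7.26% of all windows. TTTCCCGC was in 3 (MTF2, PHF19 and SUZ12; 1.63% of all windows), and TTTGGCGC was in 1 (EZH2, outside the bases printed; 0.652% of all windows). TAATCC was in 1 window, of WDR5, and in 6.36% of all windows. The matches are descriptions of these letters, not binding sites.

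H3K4me3 was read as higher in OTX2high at most of these genes, by an amount close to that of all genes with a listed region. In the authors' deposited table of differential regions, a G-test of 1 library against 1, 29 of 43 genes had regions that were all higher in OTX2high, where 41.7% of all genes did. Among the 14587 genes with an H3K4me3 peak in both lists, that share was 55.4%. PHF19 alone had its region higher in OTX2low (6.00% of all genes), JARID2 and KDM5B had regions in both directions (5.99% of all genes), and 11 genes had none.

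Each gene is represented by its main region, the one holding most reads. Over the 32 genes with a region, the median log2 ratio of OTX2high over OTX2low was 0.52, against 0.53 over 10726 genes of the whole table. Relative to that all-gene median, 15 of the 32 lay above it and 17 below. A direction toward OTX2high is thus a statement on normalized reads, and it flips for 16 of the genes if ratios are centred on that median. The median is taken over listed regions only, which passed a p cutoff, so it does not measure an offset between the libraries. The counting interval of the ratio lay wholly above 0.53 for 5 of the 32 genes (EED, PHC2, RNF2, KMT2A and MEN1; 19.1% of all genes with a region). It lay wholly below for SUZ12 and PHF19 (16.4% of all genes with a region). KMT2A, MEN1 and PHF19 rest on few reads, as given below. In bulk libraries, a mark on fewer cells and less of it per cell cannot be told apart.

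**Figure D1:**
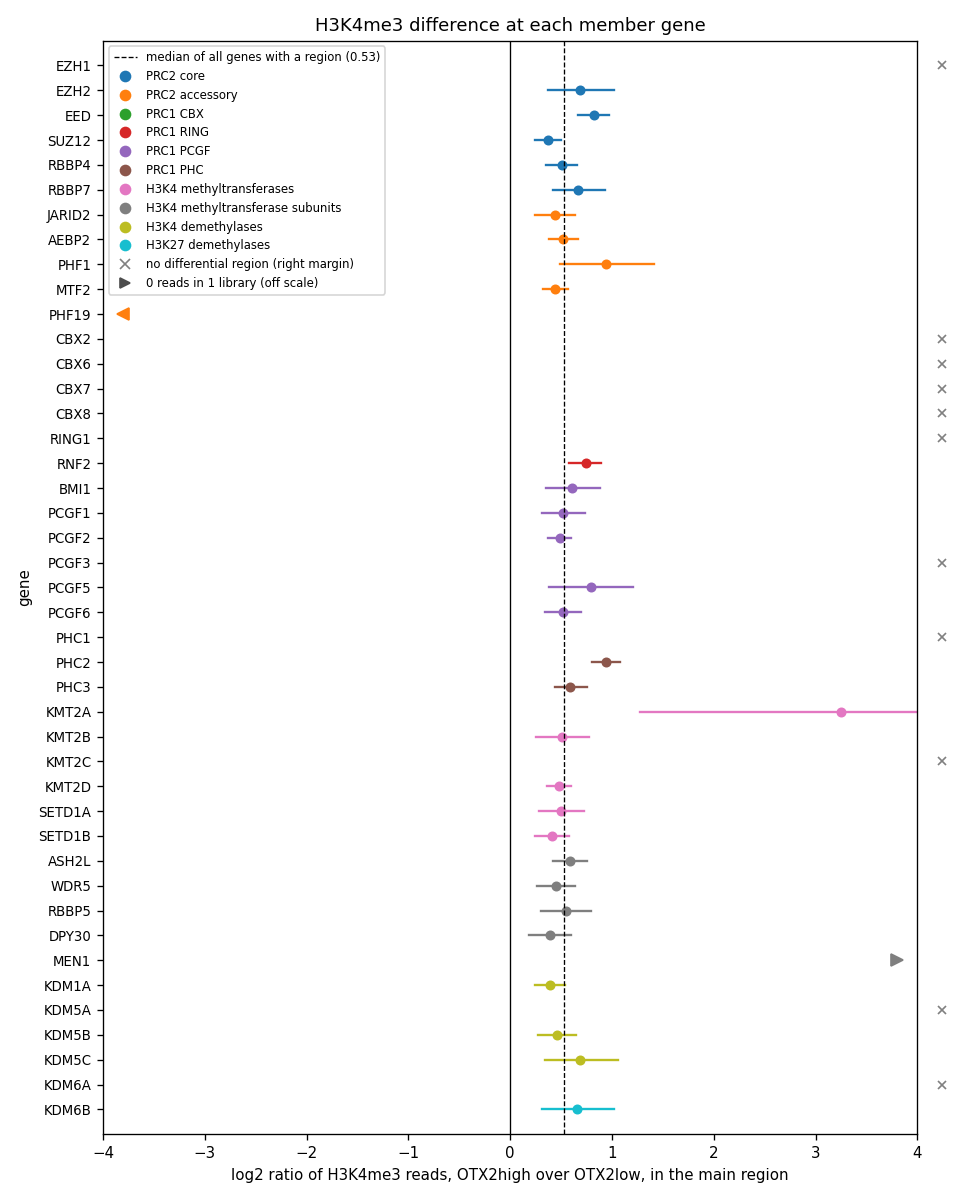
H3K4me3 log2 ratio of OTX2high over OTX2low reads in the main region of each gene (x axis), with 95% counting intervals as lines and colors for role; crosses in the right margin mark the 11 genes with no region. Most intervals include the dashed line at 0.53, the median of all genes with a region, and a direction toward OTX2high flips under centring for the points left of that line; PHC2, EED and RNF2 lie wholly above it, and SUZ12 lies wholly below.

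With regions restricted to those inside a peak and with at least 50 normalized reads, 29 of the 43 genes had a main region. Their ratios ran from 0.37 to 0.94, with quartiles of 0.46 and 0.67, and the quartiles of 9426 genes by the same rule were 0.44 and 0.68. None of the 43 differed at least 2-fold in such a main region, where 6.94% of genes with a peak in both lists did. Counting any such region, not the main one alone, 4 did (AEBP2, BMI1, PHC2 and RNF2), all toward OTX2high, against 13.9% of genes with a peak in both lists. KDM5B was the only one with any such region higher in OTX2low, against 7.64% of genes with a peak in both lists.

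Listed ratios had a higher median far downstream of the first start than near it, at these genes and over the whole table. Of 13 in-peak regions that began more than 4 kb after the first start, at 8 genes and in part at internal starts or past the 3′ end, all were higher in OTX2high and 7 at least 2-fold, with a median log2 ratio of 1.12. Over all genes such regions had a median of 0.88, and 47.3% were at least 2-fold higher in OTX2high. The 32 in-peak regions that began nearer or upstream had a median of 0.535, with 1 at least 2-fold, against a median of 0.54 and 8.12% over all genes. Another 8 in-peak regions lay at genes with no strand given and were left out of this split, whose distance was chosen after values were seen. Regions were listed by a p cutoff, so one with few reads is listed only at a large ratio.

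**Figure D2:**
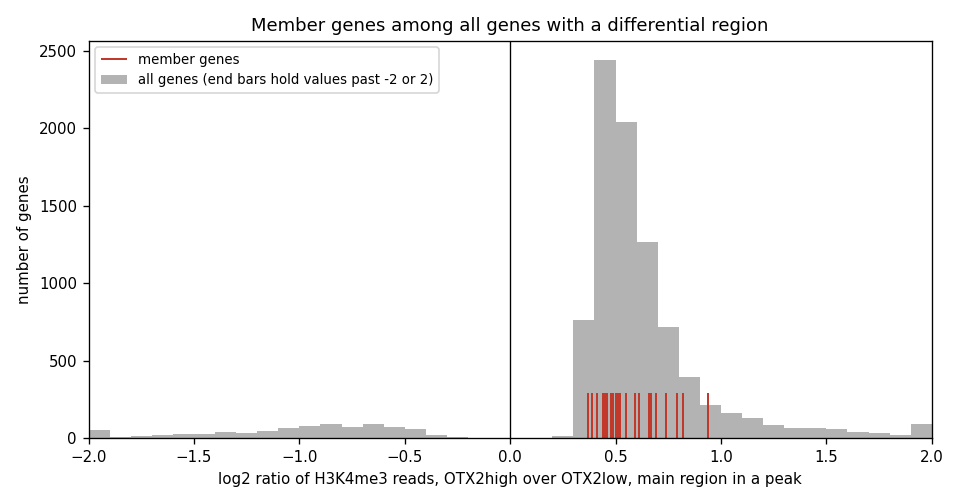
Number of genes (y axis) by H3K4me3 log2 ratio of the main region inside a peak with at least 50 reads (x axis, bins of 0.1), with red ticks for the 29 genes of the set. The ticks fall between 0.37 and 0.94, around the peak of the all-gene distribution, and none falls among the genes to the left of 0; set against the all-gene median of 0.53 instead of 0, the ticks lie on both sides.

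In PRC2, EED had the highest ratio of the core subunits with a listed region, and its counting interval overlapped those of EZH2 and RBBP7. EED, which binds H3K27me3 and stimulates the enzyme, had 1092.08 normalized H3K4me3 reads in OTX2high and 620.52 in OTX2low over the region chr11:86245001-86250500. The log2 ratio was 0.82 (95% counting interval 0.67 to 0.97). This region began 248 bp after the start and ran to 5747 bp, past the end of the OTX2low peaks. In the OTX2high list the EED peaks reached 5707 bp after the start, and in the OTX2low list 3112 bp.

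SUZ12, the scaffold subunit, had the strongest core promoter and the smallest ratio. Its peak had a fold enrichment over local background of 65.1 in the OTX2high list (percentile 96.8 among all genes' top peaks in that list) and 54.5 in the OTX2low list (percentile 96.9). Its region held 1250.83 reads in OTX2high and 965.25 in OTX2low, giving a log2 ratio of 0.37 (0.25 to 0.50). Set against the all-gene median, SUZ12 was at -0.16.

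EZH2 had the lowest H3K4me3 enrichment of the set in the OTX2high list. Its single peak had a fold of 23.8 in OTX2high (percentile 16.2) and 22.1 in OTX2low (percentile 20.0), and was 4118 and 3610 bp long. A region 891 to 2190 bp after its start held 230.54 reads in OTX2high and 142.91 in OTX2low, giving a log2 ratio of 0.69 (0.37 to 1.02). EZH1, the other catalytic subunit, had a peak of 2142 bp in OTX2high (fold 40.2) and of 1859 bp in OTX2low (fold 21.7), and no differential region. These were the shortest covered lengths of the 43 genes in both lists.

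The histone-binding subunits RBBP4 and RBBP7 had log2 ratios of 0.51 and 0.67. RBBP4 had 3 regions around its start, and the largest, at -2707 to 192 bp from the first start and shared with the span of ZBTB8OS, held 895.84 reads in OTX2high and 630.54 in OTX2low. Across core and accessory PRC2 genes the regions pointed to OTX2high in 8 of 11 genes. That was so for 41.7% of all genes and 55.4% of genes with a peak in both lists. The main regions of the PRC2 genes lay on both sides of the all-gene median.

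Among the accessory PRC2 subunits, which recruit or tune the complex, PHF1 had the highest ratio, 0.94 (0.49 to 1.41), with 130.03 reads in OTX2high and 67.69 in OTX2low. Its region lay past its 3′ end, so it is not a measure of the PHF1 promoter. AEBP2 had its main region at 0.52 and MTF2 and JARID2 theirs at 0.44, all at gene starts. AEBP2 also had a region 48529 to 50928 bp after its first start with 106.1 reads in OTX2high and 28.83 in OTX2low.

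JARID2 and PHF19 supplied the weak regions toward OTX2low. In JARID2 that region held 0.8 reads in OTX2high and 15.04 in OTX2low, outside any peak, while its start region held 544.85 and 402.39. The only region of PHF19 held 0 reads in OTX2high and 12.54 in OTX2low, at least 5.24-fold higher in OTX2low against a floor of 3 counts, also outside any peak. Neither reaches 50 reads, and the peaks at the PHF19 starts had no listed difference.

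In PRC1, 8 of 15 genes had a differential H3K4me3 region, toward OTX2high in each, against 41.7% of all genes and 55.4% of genes with a peak in both lists. These were none of the 4 CBX genes, which read H3K27me3, 5 of 6 PCGF genes, 2 of 3 PHC genes and 1 of 2 RING genes, numbers too small to compare, and a difference between subunits was not tested. No listed region does not show equal H3K4me3, since the table holds called regions only. CBX2 and CBX8 lie 4148 bp apart on chromosome 17 and share 1 peak between them. Their top peaks were among the strongest in the OTX2high list, with a fold of 73.8 at CBX2 (percentile 99.7) and 66.6 at CBX8 (percentile 97.7). In the OTX2low list CBX2 had a fold of 55.4 and CBX8 43.5, with 58.8 at PCGF2 the highest of the 43 genes there. CBX6 and CBX7 had folds of 48.2 and 44.6 in OTX2high and 45.4 and 35.4 in OTX2low.

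The RING ligases differed in what was listed for them. RING1 had a 2186-bp start peak in OTX2high (fold 53.6), a 1985-bp start peak in OTX2low (fold 38.3) and no differential region. RNF2 had 985.19 reads in OTX2high and 591.68 in OTX2low just after its start, a log2 ratio of 0.74 (0.58 to 0.89). It had 3 more regions inside its span, all toward OTX2high. They held 72.59 and 30.09 reads at 4943 to 6342 bp, 86.95 and 23.82 at 12443 to 14442 bp, and 127.64 and 58.92 at 29543 to 31342 bp after the start. RNF2 had 7 peaks over 7698 bp in the OTX2high list and 3 over 3992 bp in the OTX2low list.

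PHC2, a polyhomeotic scaffold, shared with PHF1 the highest ratio among main regions inside a peak. Its main region chr1:33425201-33430900, from 195 to 5894 bp after its first start, held 1344.16 reads in OTX2high and 700.74 in OTX2low, a 1.92-fold difference and a log2 ratio of 0.94 (0.80 to 1.08). Both EED and PHC2 were thus called over 5500 and 5700 bp inside the gene, not over the start itself. PHC2 had smaller regions deep in the gene, with 51.85 and 18.8 reads at 79295 to 80294 bp (1.46, 0.64 to 2.38) and 33.5 and 7.52 at 72495 to 73494 bp (2.16, 0.91 to 3.68). PHC2 also had the most peaks of the set, 16 in OTX2high and 9 in OTX2low, many of them near an internal start 81196 bp after the first. PHC3 had 891.06 and 590.43 reads, a log2 ratio of 0.59. PHC1 had a start peak in both lists (2452 and 2161 bp) and no region.

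PCGF proteins set the identity of each PRC1 complex. PCGF2 carried the strongest H3K4me3 peak of the set in OTX2high, with a fold of 78.4 (percentile 99.9) and a length of 9435 bp, shared with the extended span of PSMB3. Its main region, around the first start, held 1672.03 reads in OTX2high and 1194.65 in OTX2low, giving a log2 ratio of 0.49 (0.37 to 0.60). PCGF5 had 151.57 and 87.75 reads near an internal start 64444 bp after the first, a log2 ratio of 0.79 (0.39 to 1.21). PCGF1 and PCGF6 were both at 0.52, and PCGF3 had no region.

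BMI1, also called PCGF4, had its H3K4me3 differences beside the main peak, not in it. Its strongest peak in OTX2high, 837 to 2773 bp after the first start (fold 61.5), covers a RefSeq start at 857 bp and had no listed difference. A region 3002 to 4401 bp after the first start held 319.89 reads in OTX2high and 209.35 in OTX2low, giving a log2 ratio of 0.61 (0.35 to 0.88). An upstream region held 153.16 and 76.47 reads, a log2 ratio of 1.00 (0.58 to 1.44). Both overlap the extended span of COMMD3-BMI1, a readthrough gene, and the upstream one overlaps COMMD3.

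**Figure D3:**
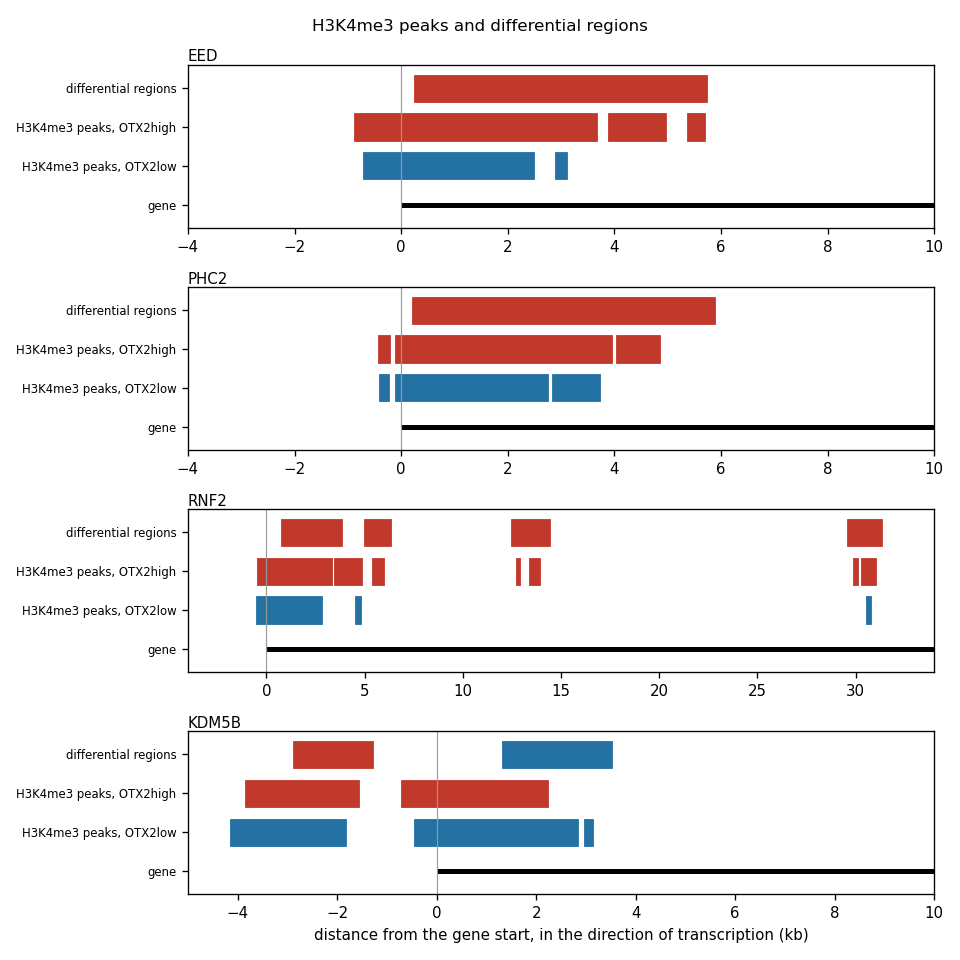
H3K4me3 peaks of each list and differential regions by distance from the gene start (x axis, kb) at EED, PHC2, RNF2 and KDM5B; regions are red where reads were higher in OTX2high and blue where higher in OTX2low. At EED and PHC2 the red region runs past the last peak at the start in both lists, to 5747 and 5894 bp, RNF2 has 4 red regions, and at KDM5B a blue region from 1321 to 3520 bp faces a red one upstream. On the scale centred on the all-gene median, the red regions of EED, PHC2 and RNF2 stay above 0 and that of KDM5B falls to -0.07.

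Of the 11 genes of the H3K4 methyltransferase complexes, 10 had regions toward OTX2high. That was so for 41.7% of all genes and 55.4% of genes with a peak in both lists. KMT2A and MEN1 are among the 10 only through regions outside any peak. KMT2C, with folds of 26.5 in OTX2high and 27.1 in OTX2low, had no region. The median log2 ratio of the 10 genes was 0.505, again near the all-gene 0.53, and 6 of the 10 were below it. KMT2D, an enhancer methyltransferase, had the best-read of these regions, with 1563.54 reads in OTX2high and 1123.2 in OTX2low (0.48, 0.36 to 0.59). KMT2B (0.51) and SETD1A (0.50) had regions near their starts that also touched the extended spans of ZBTB32 and ORAI3. KMT2A had no difference listed at its start, where its top peak had a fold of 54.2 in OTX2high and 49.1 in OTX2low. Its main region, 7709 to 9008 bp after its start, held 23.93 reads in OTX2high and 2.51 in OTX2low outside any peak, and its log2 ratio of 3.25 has an interval from 1.28 to 6.37.

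SETD1B had the broadest single H3K4me3 peak of the 43 genes in both lists, 11232 bp in OTX2high and 7846 bp in OTX2low. Its main region had 701.2 reads in OTX2high and 527.75 in OTX2low, giving a log2 ratio of 0.41 (0.24 to 0.58). In that region the authors' deposited ratio of ChIP over IgG reads pointed the other way, 91.2 in OTX2high and 139 in OTX2low, as it did in the main regions of RBBP4 (44.8 and 45.9) and KDM5C (40.5 and 48.7). Relative to the all-gene median SETD1B was at -0.12.

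The shared subunits of these complexes, MEN1 aside, had log2 ratios between 0.39 and 0.59. ASH2L was at 0.59, RBBP5 at 0.55, WDR5 at 0.45 and DPY30 at 0.39, the lowest of them, with 490.6 reads in OTX2high and 374.82 in OTX2low. WDR5, which holds the complex on the H3 tail, had a further upstream region, from 1198 bp before its first start to the start itself, with 158.75 and 81.48 reads (0.96, 0.55 to 1.39). MEN1, the menin subunit that tethers KMT2A and KMT2B, had only a weak region of 11.97 reads in OTX2high and 0 in OTX2low outside any peak, at least 3.18-fold higher against the floor of 3 counts.

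KDM5B, which removes methyl groups from H3K4me3, was the one gene with a well-covered region in the opposite direction. The region chr1:202804901-202807100, 1321 to 3520 bp after its start, held 308.72 reads in OTX2high and 503.93 in OTX2low. The log2 ratio was -0.71 (-0.91 to -0.50), with a Benjamini-Hochberg adjusted p of 1.6e-09 from the G-test in the authors' deposited table. KDM5B reads there were thus 1.63-fold higher after OTX2 silencing, and on the scale centred on the all-gene median the difference toward OTX2low is larger. Upstream, at -2879 to -1280 bp, 601.48 reads in OTX2high stood against 437.49 in OTX2low (0.46, 0.27 to 0.65). That upstream region is the main region of KDM5B, and it also overlaps the extended span of LOC124904583. The KDM5B start peak ended at 2239 bp in the OTX2high list, while in the OTX2low list the peaks reached 3145 bp.

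The other H3K4 demethylases showed no such region. KDM1A (LSD1) had 906.21 reads in OTX2high and 690.72 in OTX2low just after its start, a log2 ratio of 0.39 (0.24 to 0.54). KDM5C was at 0.69, in a region across its start that touches the extended span of IQSEC2. KDM5A had a 4817-bp peak in OTX2high (fold 56.6) and no region.

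The H3K27 demethylases KDM6A (UTX) and KDM6B (JMJD3) had H3K4me3 of below-median enrichment in both lists. KDM6A had folds of 25.9 (percentile 18.5) in OTX2high and 21.2 (percentile 18.5) in OTX2low, and no region. KDM6A lies on chromosome X, as do RBBP7 (percentile 22.3 in OTX2high) and KDM5C (percentile 29.0 in OTX2high). The part of the chromosome in these folds was not tested. KDM6B had a peak over its start with a fold of 28.0 in OTX2high, and the peaks there in OTX2low had folds of 18.3 and 22.5. Within the KDM6B gene, a peak from 6399 to 11284 bp in OTX2high (fold 29.2) stood against one from 6679 to 11114 bp in OTX2low (fold 22.1). The KDM6B peak with the highest pileup was at percentile 22.7 in OTX2high. In OTX2low that peak lay past the 3′ end, at percentile 35.1. In all, KDM6B peaks covered 14535 and 13183 bp, 6 in OTX2high and 7 in OTX2low, among the longest stretches of the set. The only KDM6B region, with 192.25 and 121.6 reads, lay past its 3′ end within reach of CYB5D1, NAA38 and TMEM88. No difference was listed at the promoter of either gene.

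Peak length also went the way it did over all genes with a peak in both lists. Over the 43 genes, summed H3K4me3 peak length was greater in the OTX2high list for 38 and smaller for 5 (MTF2, CBX7, KMT2C, KDM5A and KDM5B). The median ratio of lengths was 1.17 for these genes and 1.17 for all genes with a peak in both lists, of which 85.8% had the longer sum in OTX2high. The OTX2high library was also the deeper, and the part of depth in these lengths was not tested. The genes' own sums were longer than most, with medians of 4271 and 3698 bp against 3078 and 2625 bp over all genes with a peak. Their spans were longer as well, with a median of 42.5 kb against 24.2 kb.

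**Figure D4:**
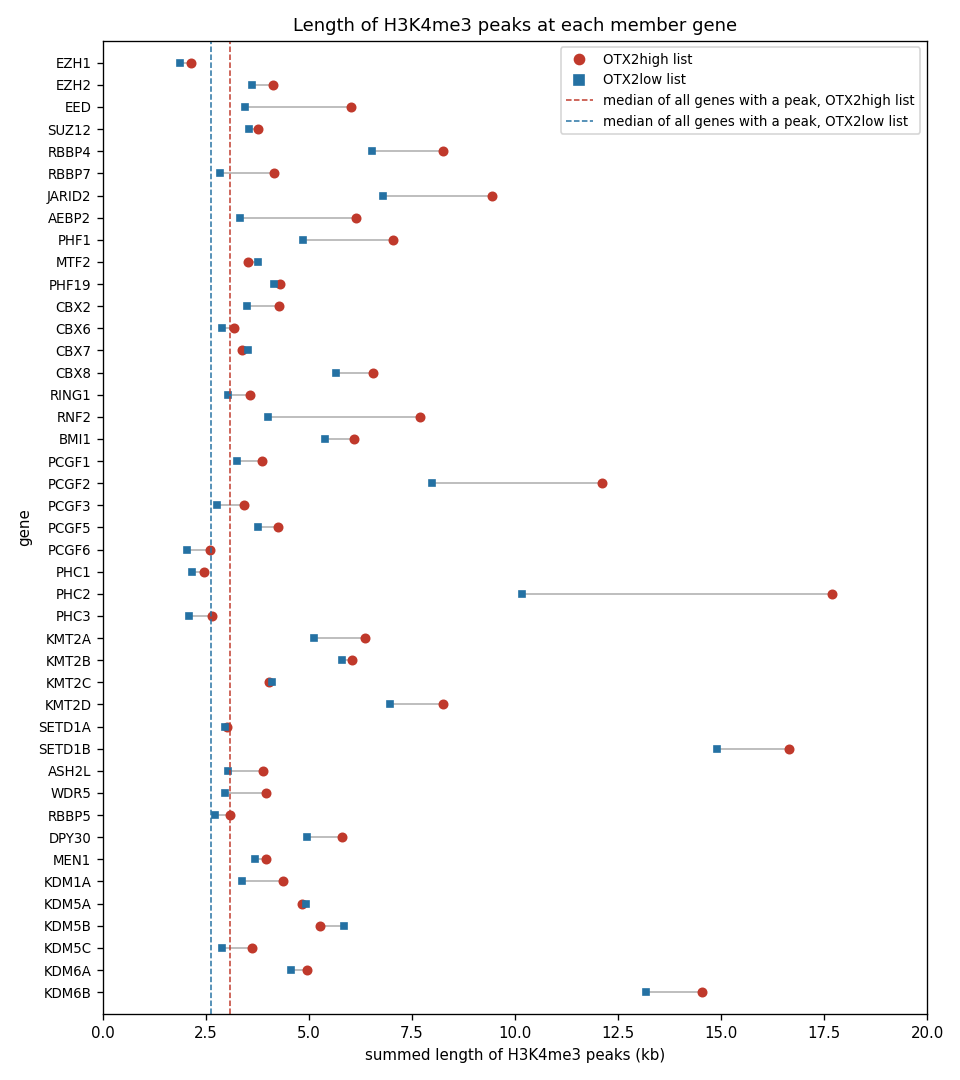
Summed length of H3K4me3 peaks at each gene in kb (x axis), red circles for the OTX2high list and blue squares for the OTX2low list, with dashed lines at the medians of all genes with a peak. PHC2, SETD1B, KDM6B and PCGF2 have the longest sums in OTX2high, and MTF2, CBX7, KMT2C, KDM5A and KDM5B are the 5 genes whose blue square lies to the right.

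H3K27me3 peaks were found at a minority of these genes, as over all genes, and were short where present. In the list labelled OTX2high, the median summed peak length was 525 bp, against 2865 bp over all genes with a peak. In the list labelled OTX2low it was 189 bp, against 855 bp. A peak touched 7 of 43 in the list labelled OTX2high (CBX7, RING1, BMI1, PCGF5, PHC1, PHC2 and KMT2C), against 25.8% of all genes. In the list labelled OTX2low it touched 4 of 43 (RING1, BMI1, PHC1 and KMT2C), against 17.7% of all genes. None of the 11 PRC2 genes and none of the 6 demethylase genes had one in either list, and 6 of the 7 genes with a peak encode PRC1 subunits. These numbers are too small to compare, and a difference between the groups was not tested. Among genes with H3K4me3 in both lists, H3K27me3 in either list was thus found at 7 of these 43 and at 22.3% of all genes. Of the 23 H3K27me3 peaks at these genes, 2 were longer than 500 bp, and 8 overlapped an H3K4me3 peak.

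Those 2 peaks were at RING1 and BMI1, both in the list labelled OTX2high. The lists were called with unlike fragment lengths, 169 bp in the one labelled OTX2high and 78 bp in the one labelled OTX2low. The part of this setting in peak length was not tested, so lengths are not compared between the lists. At RING1, a peak at chr6:33213086-33215294 was 2209 bp long with a fold of 6.25, and began 370 bp past the 3′ end of the gene. The list labelled OTX2low held 4 short peaks in the same interval, with folds of 4.04 to 6.57. An H3K4me3 peak of 1100 bp in OTX2high and 1039 bp in OTX2low overlapped it, so both marks were found at this site outside RING1 and its promoter had H3K4me3 alone.

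At BMI1 both marks overlapped inside the gene. The H3K27me3 peak chr10:22322008-22322532, 909 to 1433 bp after the first start, had a fold of 6.82 and a -log10 q of 12.3, and lay in the strongest BMI1 H3K4me3 peak. In the list labelled OTX2low a 125-bp peak lay within it, with a fold of 4.04 and a -log10 q of 2.41. A PHC1 peak of 248 bp, 718 bp after its first start and just past its other start at 666 bp, also lay inside the H3K4me3 peak (fold 3.69), but in the list labelled OTX2high alone. The 3 further PHC1 peaks of that list, and its 1 peak in the other list, lay between 16643 and 27003 bp after the first start.

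The remaining peaks were weak. CBX7 had 2 of 175 and 173 bp upstream of its start (folds 3.01 and 3.22), and the 175-bp one overlapped an H3K4me3 peak of both lists. PCGF5 had 1 near internal starts (fold 3.12), inside an H3K4me3 peak of both lists. PHC2 had 1 at 74523 bp (fold 3.06), outside H3K4me3. KMT2C had 4 and 3 peaks, all between 198947 and 223751 bp after its start and outside H3K4me3. KMT2C is known for near-identical partial copies elsewhere in the genome, so reads there may be misplaced and these peaks are uncertain.

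**Figure D5:**
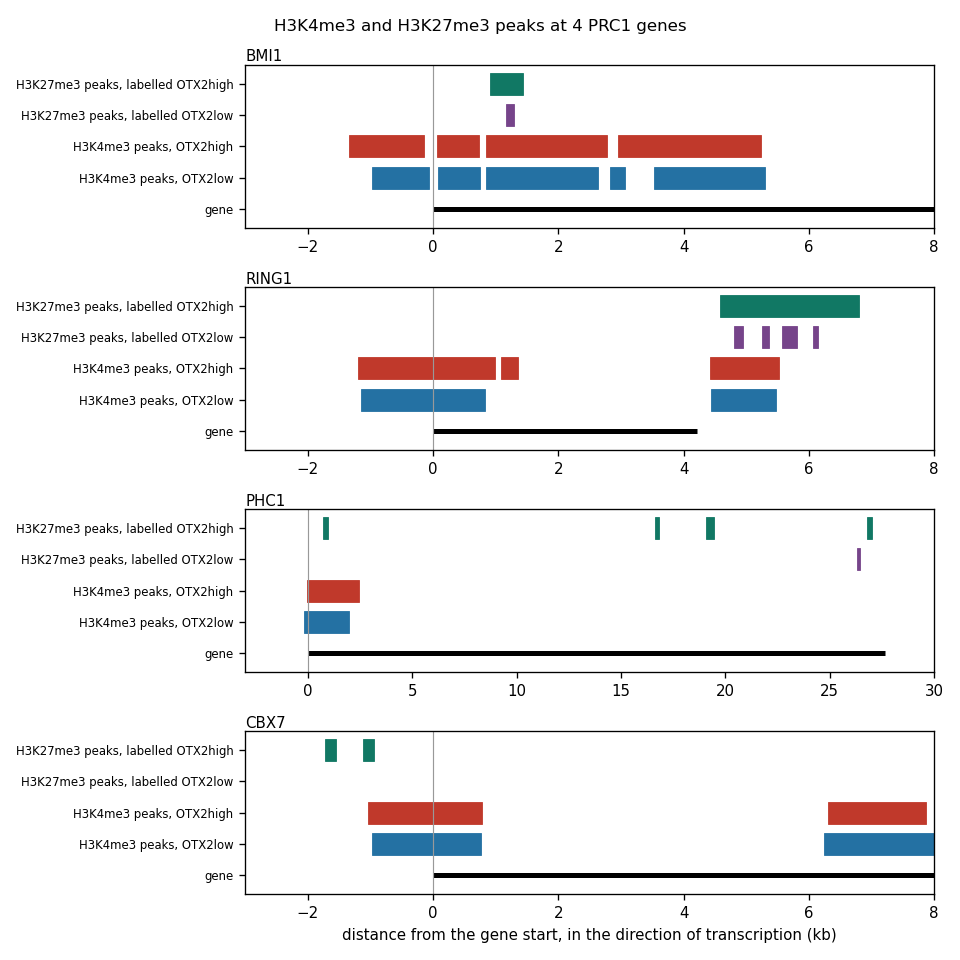
H3K4me3 and H3K27me3 peaks by distance from the gene start (x axis, kb) at 4 PRC1 genes, with the gene as a black bar and each list in its own row; the H3K27me3 lists are named by sample label. At BMI1 the H3K27me3 peaks lie inside an H3K4me3 peak, at RING1 they lie past the 3′ end of the gene, and at PHC1 and CBX7 they are short.

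Few H3K27me3 differences were listed. In the authors' deposited table, BMI1 was the only gene of the 43 with a region higher in OTX2low (7.10% of all genes), and RBBP5 the only one higher in OTX2high (3.35% of all genes). The BMI1 region held 322.43 reads in OTX2high and 443.43 in OTX2low over 17000 bp, a log2 ratio of -0.46 (-0.67 to -0.25). It began 8902 bp after the first BMI1 start and ran on to SPAG6, so most of it lies outside BMI1. The RBBP5 region held 178.36 and 109.33 reads inside the gene, a log2 ratio of 0.71 (0.36 to 1.06). Its ratio of ChIP over IgG reads was 0.76 and 0.59, both under 1, and no H3K27me3 peak lay there. Over all genes with a region the median H3K27me3 log2 ratio was -0.33, so the BMI1 value is -0.13 relative to it.

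A second list of 40 related genes holds further PRC1 and PRC2 cofactors, cofactors of the H3K4 methyltransferases, other lysine demethylases and Trithorax-class remodelers. H3K4me3 peaks were present at 39 of the 40 in both lists (75.0% and 73.7% of all genes), the exception being EZHIP, an inhibitor of PRC2. H3K4me3 regions pointed to OTX2high in 29, against 41.7% of all genes and 55.4% of genes with a peak in both lists. They pointed in both directions in 5 (KDM2B, SCMH1, SCML2, KDM4C and BPTF), against 5.99% of all genes, and 6 genes had none. The median log2 ratio of the related genes with a region was 0.55, against 0.53 over all genes with a region.

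Among these genes with reads in both libraries, CHD7, a chromatin remodeler, and BCOR, a PRC1 corepressor, had the highest ratios. CHD7 had 97.32 reads in OTX2high and 30.09 in OTX2low (1.69, 1.05 to 2.39), and BCOR had 430.77 and 191.8 (1.17, 0.91 to 1.44). The CHD7 region was weak, with ratios of ChIP over IgG reads of 4.4 and 1.24, against 38.9 and 13.5 at BCOR. Where these regions lie relative to the gene starts was not examined. LCOR and NCOA6 had weak regions with 0 reads in OTX2low. The lowest ratios were at CXXC1, a SETD1 subunit (0.35, 0.18 to 0.53), and BPTF (0.36, 0.17 to 0.55), both below the all-gene median. None of the 40 had an H3K27me3 region, EPOP had H3K27me3 peaks in both lists, and L3MBTL2 had 1 in the list labelled OTX2high.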

How the data were processed

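H3K4me3 and H3K27me3 ChIP-seq came with 4 peak lists and, per mark, a table of differential regions and one of hotspots. The submitters' processing notes name Bowtie2 2.3.3.1, GRCh38 and MACS2 2.1.1.20160309. Each list comes from 1 library and 1 IgG library at q 0.05, after removal of duplicates, per the file headers. Per peak the authors deposited a pileup signal, a fold enrichment (ratio over local background) and -log10 p-values and q-values. The differential tables come from diffReps 1.55.6 (per the file headers). Their deposited columns are a read signal scaled to each library, ChIP-to-IgG ratios, log2 ratios (equal to those of the read columns), and a p-value with its Benjamini-Hochberg adjustment. This G-test weighs 1 library against 1 and says nothing of spread within a condition.

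Genes are the protein-coding genes of the GRCh38.p14 RefSeq table, and overlap needed 1 bp. Percentiles rank a gene's highest-pileup peak among all genes with a peak in that list. In the deposited H3K4me3 signal 1 read counted as 0.798 (OTX2high) or 1.25 (OTX2low). After division, 98.1% and 99.9% of values were whole within 0.05. The G-test recomputed on these reads called 21714 of 21714 regions, which were the authors' calls already. For H3K27me3 the shares were 97.8% and 93.4%, so those reads are approximate. Exact conditional (Clopper-Pearson) 95% intervals of a ratio come from these reads and cover counting error only. The overlap rule, the interval and the G-test were tested on simulated data. Calculations used Python with pandas, NumPy and SciPy. Strand and start sites came from the RefSeq promoter windows, missing for CBX2, CBX8, ASH2L, DPY30 and SETD1B.

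The members and gene lists were chosen with earlier results of these data known. All 43 members were accounted for. Full values went by rule to the 3 highest and 3 lowest H3K4me3 ratios, the highest and lowest of each role, those with H3K27me3 or a region toward OTX2low, EZH2, EZH1, KMT2A, BMI1, KDM6A and KDM6B, and, of the related genes, the 2 highest and 2 lowest. Alternatives changed the q, p and read thresholds, the window and the centring.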

Additional observations from a re-analysis of the deposited data

How the results depend on the processing

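No paired analysis was possible because each mark and condition had 1 library and no result comes from a test over samples. H3K4me3 peaks touched 43 genes in both lists with a -log10 q of at least 10, an overlap of 200 bp or no 2-kb extension, and 39 in each list in start windows alone. H3K27me3 counts rested on weak peaks: at a -log10 q of at least 10, the list labelled OTX2high held 2 genes (7 in the report), the list labelled OTX2low 0 (4) and both marks 2 (7). Both marks with H3K27me3 in both lists gave 4. An overlap of 200 bp left 1 in the list labelled OTX2low, and start windows alone left 3 and 1.

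H3K4me3 was higher in OTX2high at 29 genes, at 9 with an adjusted p of at most 1e-10, and at 15 after centring on the all-gene median. The count toward OTX2low, 1 in the report, was 0 at that p, 0 with at least 50 reads, 0 with regions in peaks, 0 in start windows, 2 without the 2-kb extension and 7 after centring. H3K27me3 calls, 1 each way, were 0 each way at that p and in start windows, and 0 toward OTX2high with regions in peaks. The G-test on recovered reads, chosen after seeing the data, changed no count, but it retested only regions that the authors had called already. The count of genes with any well-read region toward OTX2low, also chosen after seeing the data, was 1 as well. That gene was KDM5B, whereas the count in the report held PHF19.

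The median log2 ratio of 0.52 was 0.725 with each gene's largest absolute ratio and -0.01 after centring. Centring turned SUZ12 to -0.16, DPY30 and KDM1A to -0.14, SETD1B to -0.12, JARID2 and MTF2 to -0.09, WDR5 to -0.08, KDM5B to -0.07, KMT2D to -0.05, PCGF2 to -0.04, SETD1A to -0.03, RBBP4 and KMT2B to -0.02, and AEBP2, PCGF1 and PCGF6 to -0.01. The largest absolute ratio turned JARID2 to -4.24 and KDM5B to -0.71. Depth limits the regions with few reads: those outside peaks held at most 41.25 normalized reads.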

Other observations

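The authors' deposited hotspot table, which joins neighboring differential H3K4me3 regions, placed 12 of the 43 genes in one of its 1964 hotspots (KDM1A, RBBP4, RNF2, KDM5B, BMI1, SETD1B, PCGF2, DPY30, PCGF1, PHF1, ASH2L and WDR5), and 12.2% of all genes by the same overlap. The longest of these was the RNF2 hotspot, 30.6 kb with 4 regions, all higher in OTX2high. KDM5B was in an 8-kb hotspot of 3 regions, of which 1 was higher in OTX2high and 2 were higher in OTX2low, and the PHF1 hotspot held 3 and 1. In the other 10 hotspots every region was higher in OTX2high. None of the 43 genes was in one of the 61 H3K27me3 hotspots, which overlapped 0.536% of all genes.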
